A study of Arabidopsis thaliana with 12 samples.

Results

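Wild-type (Col-0) Arabidopsis thaliana seedlings and seedlings of OK100-oct, a mutant line lacking 8 Raf-like protein kinases, were compared after treatment with abscisic acid (ABA), to ask which transcripts differ between them while the hormone is present. The comparison takes the 6 libraries labelled as ABA-treated, 3 of each genotype, out of 12 in the series. OK100-oct was made by gene editing in Col-0 and is null for RAF10 and RAF11, for RAF7, RAF8 and RAF9, and for RAF3, RAF4 and RAF5. The labels call it m9, which was taken to be OK100-oct because the study names that line as the one sequenced. The study also has a line that lacks RAF6 besides (OK100-nonu, 9 genes), and the label alone does not tell which is meant. All seedlings were labelled as 12 days old, and the other 6 libraries are the same genotypes without ABA. No other mutant line was sequenced, so the effect of the mutation below means the difference between this line and Col-0. The dose and duration of ABA for these libraries are not given in the sources used here. Whole seedlings were sequenced, so fewer cells of a type and less RNA per cell cannot be told apart. Nothing in the labels says whether the 3 libraries of a group came from separate cultures, so p-values measure the spread between these libraries, which may be technical.

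ABA is the hormone through which plants respond to drought and through which seeds mature and stay dormant. It binds PYR/PYL receptors, which then inhibit clade A PP2C phosphatases and free the SnRK2 kinases from them. B2 and B3 RAF kinases phosphorylate SnRK2 kinases, and active SnRK2 kinases phosphorylate bZIP factors of the ABF and ABI5 group, which bind ABA-responsive elements (ABREs) in promoters.

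The mutated genes came first as a check of the labels. Levels are given as CPM, that is counts as a share of the library total after scaling by its TMM factor, times 1000000, in the order of replicates 1, 2 and 3. A signed value in parentheses after them, or a value that a gene is said to be at, is the log2 fold change of OK100-oct against the wild type under ABA unless stated, with its SE after ±, where negative means lower in the mutant. RAF11 (AT1G67890) had 42.1, 38.4 and 40.5 CPM in the wild type and 19.7, 17.8 and 18.1 CPM in OK100-oct, both under ABA. RAF3 (AT5G11850) had 42.6, 44.4 and 45.4 CPM against 21.2, 16.9 and 18.8 CPM. In both genes every mutant library lay below every wild-type library, and 6 of the 8 RAF transcripts were lower in OK100-oct (edgeR quasi-likelihood test, Benjamini-Hochberg adjusted p < 0.05). RAF7 (AT3G06640, a mean of 0.198 CPM in the wild type) and RAF8 (AT3G06630, 1.12 CPM) did not pass, and sources differ on which of AT3G06620 and AT3G06640 is named RAF7. A null mutation need not lower its transcript, so the levels do not test each mutation.

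The 6 ABA libraries held between 20981219 and 26661613 counts, and their TMM factors ranged from 0.864 to 0.896 in the wild type and from 0.957 to 0.985 in OK100-oct. With library totals in place of these factors the median log2 fold change of all tested genes was 0.17 rather than 0.02. Whole seedlings were checked by leaf and root transcripts. Nuclear photosystem, light-harvesting and Rubisco genes summed to 84912 to 94841 CPM in the wild type and 99847 to 107828 CPM in OK100-oct under ABA, and 16 root cell markers summed to 158 to 161 and 174 to 199 CPM. Both organs were thus present in every library. The sources do not say whether counting used strand, so the counts of a gene that overlaps another on the opposite strand are uncertain, as for RAB18, LEA7, KCS2, P5CS1, ABI1, ABF1, ABF3, ABF4, AFP1, AREB3, EEL, GBF4, PYL7, SNRK2.3, DREB2A, RAF8, CT-BMY, PORB, JAZ10, NRT1.5, NRT1.8, BCAT4, GolS4, RR3, ORA47, MRD1, KT1, ProT3 and AT1G22690.

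Sequences upstream of 5 lower genes are shown because the ABRE core motif was present in a larger share of lower genes than of all genes. GEA6, AT4G36600 and LTP4 are among the 12 with the largest decrease, and RD29B and RAB18 are markers the study names. The window covers 250 bases before and 50 bases after the annotated start of each gene, from RefSeq on TAIR10.1, and capitals mark the core motif (ACGTG, or CACGT on the other strand). GEA6 (the Em6 protein of seeds) lies at chr2:16780319-16780618, minus strand, the LEA gene AT4G36600 at chr4:17263314-17263613, plus strand, RD29B at chr5:21236771-21237070, plus strand, and RAB18 at chr5:26519398-26519697, minus strand. LTP4 (chr5:23925908-23926207, minus strand), a lipid transfer protein gene that was lower by a like amount, is shown as one with no match in the window.
GEA6: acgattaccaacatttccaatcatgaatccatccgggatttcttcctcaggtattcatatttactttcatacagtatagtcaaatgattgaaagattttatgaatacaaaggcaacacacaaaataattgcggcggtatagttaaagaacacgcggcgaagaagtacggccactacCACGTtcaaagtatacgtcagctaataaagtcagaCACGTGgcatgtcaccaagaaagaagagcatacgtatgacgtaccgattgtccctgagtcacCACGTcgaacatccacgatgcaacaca
AT4G36600: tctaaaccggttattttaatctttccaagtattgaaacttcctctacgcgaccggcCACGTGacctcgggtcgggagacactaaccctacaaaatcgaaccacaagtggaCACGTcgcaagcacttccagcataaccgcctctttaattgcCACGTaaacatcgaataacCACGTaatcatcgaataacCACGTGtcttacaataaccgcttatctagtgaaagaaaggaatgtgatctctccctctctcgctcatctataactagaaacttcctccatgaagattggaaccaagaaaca
RD29B: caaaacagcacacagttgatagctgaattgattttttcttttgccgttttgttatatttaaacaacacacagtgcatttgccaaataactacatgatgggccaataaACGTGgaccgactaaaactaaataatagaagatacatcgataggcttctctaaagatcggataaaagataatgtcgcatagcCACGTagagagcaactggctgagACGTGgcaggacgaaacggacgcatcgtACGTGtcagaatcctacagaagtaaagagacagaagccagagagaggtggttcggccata
RAB18: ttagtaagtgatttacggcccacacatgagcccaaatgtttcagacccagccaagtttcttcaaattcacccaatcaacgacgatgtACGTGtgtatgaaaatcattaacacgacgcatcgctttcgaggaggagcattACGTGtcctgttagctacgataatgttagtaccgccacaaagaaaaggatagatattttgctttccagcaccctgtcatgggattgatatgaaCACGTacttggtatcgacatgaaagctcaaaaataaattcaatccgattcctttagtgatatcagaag
LTP4: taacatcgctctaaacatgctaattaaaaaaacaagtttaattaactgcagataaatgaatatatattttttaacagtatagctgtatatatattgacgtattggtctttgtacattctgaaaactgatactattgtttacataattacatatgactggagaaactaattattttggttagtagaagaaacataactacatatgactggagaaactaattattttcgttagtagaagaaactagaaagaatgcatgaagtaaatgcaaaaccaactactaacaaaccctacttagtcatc

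Under ABA the mutant differed from the wild type in 931 of 20617 genes tested (4.52%), of which 388 (1.88%) were lower and 543 (2.63%) were higher in OK100-oct with an adjusted p < 0.05 and a change of at least 3-fold. They are called the 3-fold genes. Without the fold minimum, 4276 genes (20.7%) were lower and 4399 (21.3%) were higher, and counts of list members are to be read against these shares. A member with enough counts for the test in only 1 ABA group, and not without ABA, could come out in only 1 direction. Among listed genes, PYL3, AHG1, AT2G21490, AT2G25890, WSD1 and LEA genes such as AT4G21020 had enough counts only in the wild type under ABA. The 3-fold counts were 161 lower and 190 higher where each library had to hold 10 counts, and with library totals 2799 genes were lower and 6336 higher by adjusted p alone. The median log2 fold change over all tested genes was 0.02. The lower 3-fold genes were more abundant transcripts: 267 of the 388 reached a mean of 5 CPM in the higher group, against 146 of the 543 higher ones. A change of 10-fold or more was fitted for 60 lower and 76 higher genes. Libraries of the groups did not overlap for 386 of the lower and 525 of the higher 3-fold genes, where 60.9% of all tested genes did not overlap.

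**Figure D1:**
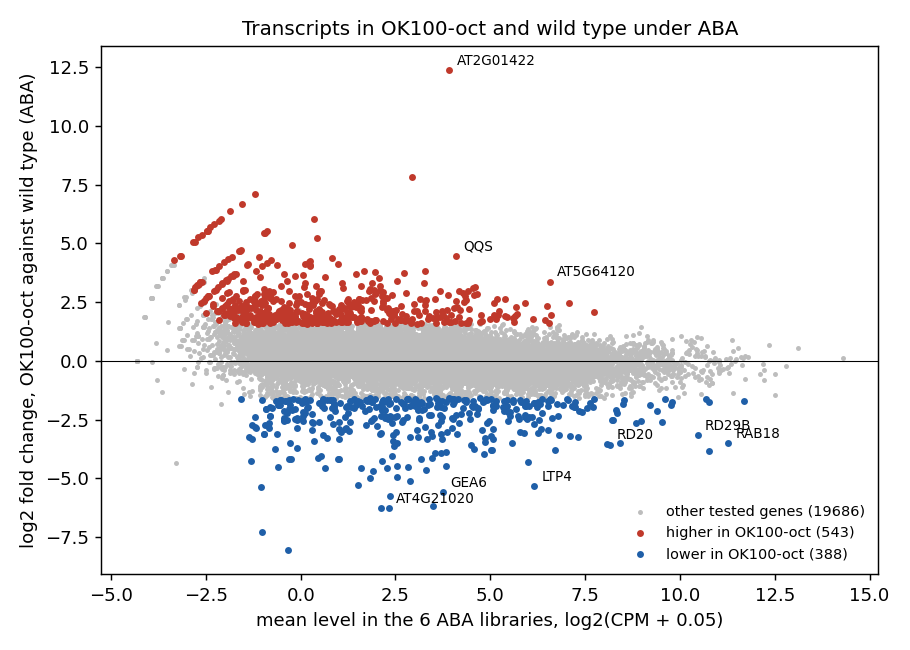
Each point is 1 of the 20617 tested genes. The horizontal axis is its mean level in the 6 ABA libraries as log2(CPM + 0.05), and the vertical axis is the log2 fold change of OK100-oct against the wild type under ABA. The 388 lower 3-fold genes (blue) extend to the most abundant transcripts, RAB18 and RD29B among them, and the 543 higher ones (red) lie mostly at low levels.

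The ABRE core ACGTG, searched on both strands, was found in the window of 209 of the 388 lower 3-fold genes (53.9%). It was found in 28.3% of the higher 3-fold genes and in 28.2% of the 20511 tested genes with a window. Of the 12 genes with the largest decrease 10 held the core, and of the 12 with the largest increase 7 did. The longer form ACGTGNC, which contains the core, was in 32.0% of lower genes, 5.37% of higher genes and 11.8% of tested genes. The drought-responsive element core CCGAC, the site of CBF and DREB2 factors, was in 19.6%, 11.5% and 16.1% of them. Over all 32834 annotated windows the shares were 25.4% for ACGTG, 9.47% for ACGTGNC and 15.6% for CCGAC. A match describes letters only, since binding was not measured.

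**Figure D2:**
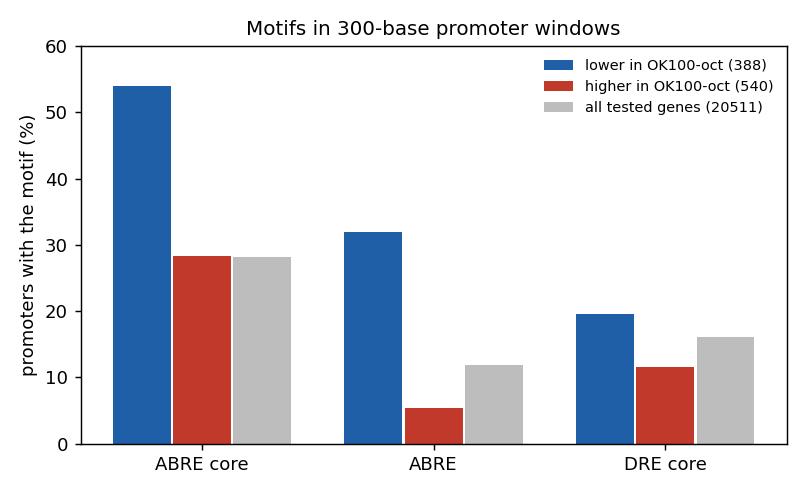
Bars give the percent of 300-base windows that hold the ABRE core (ACGTG), the longer ABRE (ACGTGNC) and the DRE core (CCGAC) on either strand, for the 388 lower 3-fold genes (blue), 540 of the higher ones (red) and 20511 tested genes (grey). The 2 ABRE forms stand at 53.9% and 32.0% in the lower genes, above both other sets.

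The seed protein genes GEA6 and EM1 were among the 12 genes with the largest decrease. Em6 and Em1 are small hydrophilic proteins of the dry seed. GEA6 (chromosome 2, bases 16779552 to 16780368), which encodes Em6, had 24.5, 25.8 and 28.9 CPM in the wild type under ABA and 0.523, 0.581 and 0.529 CPM in OK100-oct. EM1 had 7.02, 7.83 and 6.54 CPM and 0.238, 0.484 and 0.122 CPM in the same order. Both were near or at 0 in both genotypes without ABA. Libraries that do not overlap between genotypes were a condition for the 12, so the lack of overlap adds nothing here. The log2 fold changes were -5.59 ± 0.17 (SE, 3 libraries a group, edgeR adjusted p = 2.41e-08) for GEA6 and -4.68 ± 0.34 (adjusted p = 3.84e-07) for EM1, that is 48-fold and 25.6-fold lower.

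Late embryogenesis abundant (LEA) proteins, which accumulate in drying seeds and water-stressed tissue, accounted for 5 of the 12 genes with the largest decrease, Em6 and Em1 included. AT4G21020 had 9.48, 8.42 and 11.5 CPM in the wild type and 0, 0.242 and 0.122 CPM in OK100-oct, the largest fitted decrease among genes of at least 5 CPM (-6.27 ± 0.47, adjusted p = 5.06e-07). AT2G42560 had 23.1, 17.4 and 25.6 CPM against 0.476, 0.339 and 0.122 CPM (-6.15 ± 0.33). For AT4G36600, whose window holds several ABRE cores, the levels were 7.11, 6.37 and 7.07 CPM against 0.0952, 0.387 and 0.163 CPM (-4.98 ± 0.34). Of 25 listed LEA genes other than dehydrins, 23 were tested, 22 were lower and none was higher, 16 of them by 3-fold or more. Their median log2 fold change was -3.13 under ABA and -0.63 without it. Members such as AT4G21020 and AT2G42560 had enough counts for the test only in the wild type under ABA. They could not have come out higher, and the count and the median include them. Where 10 counts were required in every library, which removes genes that are silent without ABA, 5 were lower. LEA7, an abundant member, had 3410, 3095 and 3215 CPM in the wild type against 221, 235 and 232 CPM, a 14.1-fold difference (adjusted p = 4.74e-09). It was lower without ABA too, at a mean of 0.978 against 0.202 CPM.

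Dehydrins are a LEA family that protects membranes and proteins during drying. RAB18 stood at 4479, 4346 and 4870 CPM in the wild type and 361, 435 and 410 CPM in OK100-oct, with no overlap (-3.50 ± 0.21, edgeR adjusted p = 5.22e-08). It was lower without ABA too, at means of 36.3 against 5.55 CPM (-2.72, adjusted p = 1.55e-05), and the difference between the treatments did not pass (-0.79, adjusted p = 0.0688). ERD10 had 2635, 2438 and 3054 CPM against 769, 784 and 841 CPM, and LTI30 had 2397, 2337 and 2720 CPM against 767, 845 and 775 CPM. Both were lower in the mutant in every library (-1.76 and -1.64). Of 9 dehydrins tested, 7 were lower and 1, AT4G38410, was higher at below 1 CPM, with a median of -1.63. The 7 include AT2G21490, which had enough counts for the test only in the wild type under ABA and could not have come out higher. Summed over the list, dehydrin transcripts took 21671 to 24640 CPM in wild-type libraries and 8143 to 8796 CPM in mutant libraries.

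Stress genes of the RD29, KIN and COR413 families were lower in 9 of 9 cases (median -1.16). RD29B (symbol LTI65), a standard ABA reporter gene, had 2589, 2347 and 2698 CPM in the wild type against 258, 313 and 280 CPM (-3.16 ± 0.24, adjusted p = 5.45e-07). KIN1 had 825, 936 and 816 CPM against 127, 158 and 150 CPM (-2.57). COR15A, which encodes a chloroplast protein of cold-hardened leaves, had 1187, 1349 and 1545 CPM against 333, 453 and 421 CPM (-1.76). The mutant level of RD29B was still far above that of seedlings without ABA, with means of 3.1 CPM in the wild type and 1.56 CPM in OK100-oct. RD29A (LTI78), whose promoter is also driven by cold and drought, was lower by less, at 3707, 3412 and 4679 CPM against 1329, 1695 and 1523 CPM (-1.38).

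**Figure D3:**
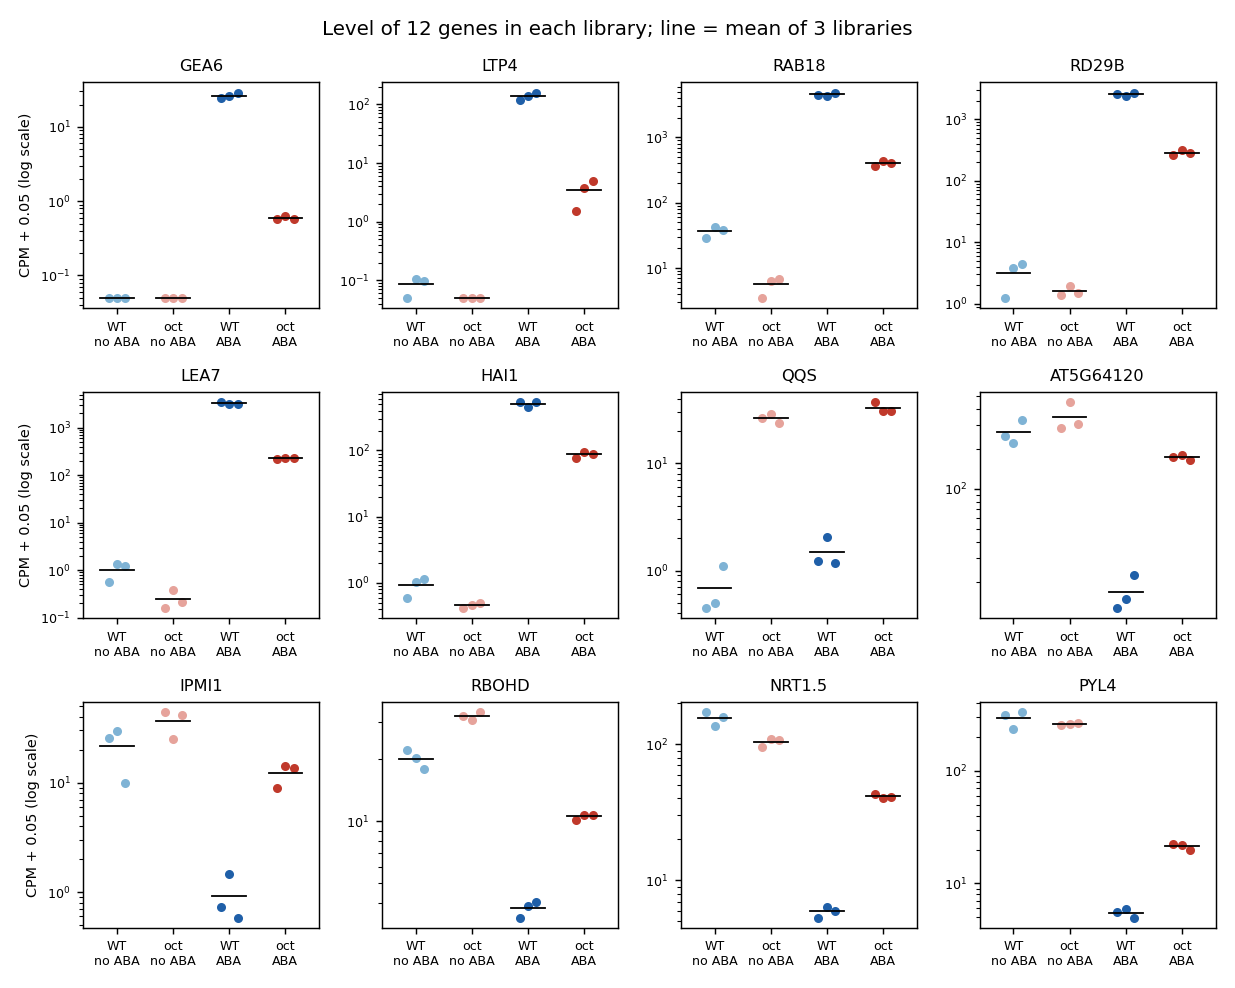
Each panel gives the level of 1 gene as CPM + 0.05 on a log axis in the 12 libraries, with 3 points a group and a line at their mean, for the wild type (WT) and OK100-oct (oct) with and without ABA. GEA6, LTP4, RAB18, RD29B, LEA7 and HAI1 are lower in the mutant under ABA, and QQS, AT5G64120, IPMI1, RBOHD, NRT1.5 and PYL4 are higher. The genotypes overlap under ABA in no panel, which for GEA6, LTP4, QQS, AT5G64120 and IPMI1 was a condition of their choice.

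The other 7 of the 12 genes with the largest decrease belong to different families. LTP4, which encodes a lipid transfer protein, had 118, 140 and 159 CPM in the wild type and 1.48, 3.68 and 4.97 CPM in OK100-oct, 40.6-fold lower (-5.34 ± 0.28, adjusted p = 1.19e-07). AT3G03620, a MATE efflux carrier, had 10.2, 8.84 and 11.1 CPM against 0.0952, 0.29 and 0.163 CPM. PAP20, a purple acid phosphatase, had 6.38, 5.36 and 4.77 CPM against 0.19, 0.145 and 0.0814 CPM. The remaining 4 were AT5G45690, AT1G27461, AT1G23070 and AT3G58450, which the annotation describes as DUF1264, uncharacterized, DUF300 and adenine nucleotide alpha hydrolase-like proteins. Their log2 fold changes were -6.27, -5.09, -4.93 and -4.66. Without ABA the highest mean of any of the 12 in either genotype was 0.102 CPM.

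The components that ABA acts through also differed, and not in one direction. All 9 clade A PP2C phosphatases, the negative regulators at the head of the pathway, were lower in OK100-oct, 6 of them by 3-fold or more, with a median of -1.82. HAI1 had 531, 457 and 531 CPM in the wild type and 77.7, 94.8 and 89.3 CPM in the mutant (-2.54 ± 0.12, edgeR adjusted p = 7.61e-09). ABI1, which encodes the founding phosphatase of the group, had 642, 550 and 648 CPM against 280, 289 and 304 CPM (-1.08). AHG1, known mainly from seeds, had 1.41, 1.05 and 2.04 CPM against 0, 0.145 and 0.0814 CPM. It had enough counts for the test only in the wild type under ABA. AHG1 could thus not have come out higher, and both counts and the median include it. Without ABA 3 of the 9 passed the test, all lower, where 2.29% of all genes were lower, and the list median was -0.43.

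Among the receptors, 10 of 14 were tested, 3 were higher and 1 was lower. PYL4 had 5.51, 5.91 and 4.93 CPM in the wild type and 22.4, 21.9 and 19.7 CPM in OK100-oct (1.96 ± 0.13, adjusted p = 1.86e-07), while both genotypes were at much higher levels without ABA (means of 293 and 262 CPM). PYL2 (1.54) and RCAR3, also known as PYL8 (0.72), were higher as well. PYL3 was the lower one, at 1.05, 0.586 and 0.911 CPM against 0, 0.0484 and 0 CPM, a level near 1 CPM even in the wild type. PYR1 (0.13), PYL1 (0.38), PYL5 (0.00), PYL6 (0.17), PYL7 (0.09) and RCAR1 (0.00) did not pass the test.

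Of 10 SnRK2 kinase genes, 6 were lower and none was higher. SNRK2.7 had the largest decrease (24.7, 24.8 and 34.7 CPM against 9.28, 8.71 and 10.9 CPM, -1.54). OST1 (SnRK2.6), the kinase of stomatal closure, had 106, 100 and 109 CPM against 52.5, 55.7 and 52.7 CPM (-0.97 ± 0.09, adjusted p = 1.93e-06). Its partners in ABA signalling differed by less: SNRK2.2 was at -0.26 (adjusted p = 0.0183) and SNRK2.3 at -0.21 (adjusted p = 0.0702). The call for SNRK2.2 was lost with library totals (-0.11, adjusted p = 0.212) and without wild-type ABA replicate 3 (-0.23, adjusted p = 0.069).

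The bZIP factors below the kinases were lower in 5 of 8 cases. ABI5, which acts in seeds and germinating seedlings, had 47.5, 36.6 and 44.2 CPM in the wild type and 13.2, 10.9 and 13.9 CPM in OK100-oct (-1.75). ABF2, ABF3, ABF4 and ABF1 were at -1.18, -1.03, -0.76 and -0.46, whereas AREB3, EEL and GBF4 did not pass (-0.05, -0.11 and -0.16). The AFP proteins, which bind ABI5 and repress ABA responses, were lower in 4 of 4 cases, AFP1 most (355, 287 and 348 CPM against 84.8, 85.4 and 84.7 CPM, -1.96). In a kinase module that ABA induces, MAPKKK18 had 85.8, 63.6 and 77.5 CPM against 15, 17.2 and 17.7 CPM (-2.18), and 5 of its 7 listed genes were lower and 1 was higher.

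Genes on both the making and the breaking side of ABA metabolism were lower. NCED3, the rate-limiting step of synthesis, had 25.4, 23 and 21 CPM in the wild type and 8.99, 9.2 and 11.9 CPM in OK100-oct (-1.20), and 5 of 7 synthesis genes were lower. CYP707A1, which inactivates ABA by hydroxylation, had 521, 470 and 538 CPM against 86.9, 103 and 73.7 CPM (-2.54 ± 0.13, edgeR adjusted p = 1.62e-08), and 4 of 8 genes for ABA breakdown, conjugation and release were lower. BGLU18, which releases ABA from its glucose ester, was higher (1.13). ABA itself was not measured.

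Transcription factors of the drought response included lower and higher genes. NAC019, a stress NAC factor, had 110, 89.1 and 110 CPM in the wild type and 24, 31.9 and 25.4 CPM in the mutant (-1.93), and 8 of 13 stress and senescence NAC genes were lower. HB-7 (-1.86) and HB-12 (-1.41), homeodomain factors that restrain growth under drought, were lower, while HB16 of the same class was higher (0.53). Of 14 class I genes tested 4 were lower and 4 were higher (2 higher without OK100-oct ABA replicate 1). MYB102, a factor linked to osmotic stress and wounding, had 55.3, 45 and 58.2 CPM against 5.47, 5.47 and 5.41 CPM (-3.27). MYB60, a guard cell factor that promotes stomatal opening, was higher (3.28, 2.81 and 3.32 CPM against 8.66, 7.7 and 8.34 CPM, 1.40). DREB2A, the main drought factor of its family, was at -1.03, and 4 of 6 CBF and DREB2 genes were lower.

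**Figure D4:**
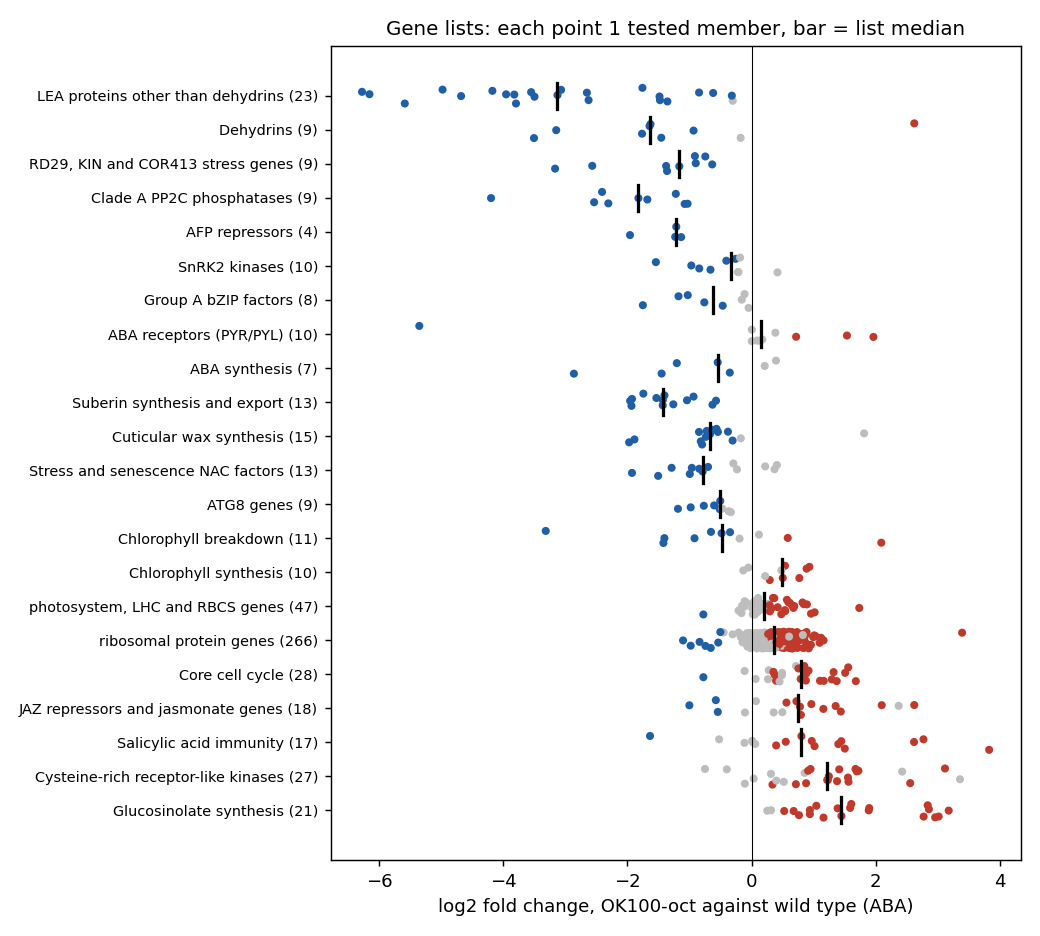
Each point is the log2 fold change of 1 tested gene, OK100-oct against the wild type under ABA, in 22 of the 53 gene lists examined, with the number tested in parentheses and a bar at the list median. Blue and red mark members that passed the test (adjusted p < 0.05) as lower or higher, and grey the rest. Except for 1 dehydrin, the LEA, dehydrin, PP2C and suberin genes lie left of 0, and glucosinolate, CRK, immunity and cell cycle genes lie mostly right of it.

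Genes for the waterproof layers of the plant formed another lower group. Suberin is the polyester of root endodermis and periderm, and 13 of 13 listed genes for its synthesis and export were lower, 4 of them by 3-fold or more. Their median was -1.43 under ABA and 0.02 without it, and the difference between the treatments passed its own test in 10 of the 13, all lower with ABA, where 9.55% of all genes were. KCS2, a fatty acid elongase 59.8% of whose exon windows of 50 bases occur in other genes, had 204, 215 and 284 CPM in the wild type and 58.8, 63.3 and 59.4 CPM in OK100-oct (-1.95). ABCG6, a suberin exporter, had 68.5, 102 and 115 CPM against 26.6, 21.8 and 26.2 CPM (-1.93), and GPAT5, an acyltransferase of suberin monomers, had 29.4, 40 and 45.4 CPM against 11.1, 9.2 and 9.85 CPM (-1.93). The mutant libraries were all lower in each of these genes. Of the 16 root cell markers, 4 passed the test, all higher (median 0.22), and with any 1 ABA library left out, 1 or 2 were higher. Without OK100-oct replicate 1, 1 marker was lower.

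Cuticular wax genes were lower in 13 of 15 cases (median -0.67, against 0.14 without ABA). CER1, which makes wax alkanes, had 207, 209 and 306 CPM in the wild type and 58.9, 55.2 and 69.8 CPM in the mutant (-1.97 ± 0.22, edgeR adjusted p = 1.84e-05). LTP3 had 101, 142 and 184 CPM against 16.1, 18.7 and 22.3 CPM (-2.90), so that it and its neighbour LTP4 were both lower. Of 6 listed lipid transfer protein genes tested, 4 were lower and 1, LTP6, was higher (1.19). RD20, a caleosin of lipid droplets, had 538, 460 and 571 CPM against 42.4, 48 and 41.6 CPM (-3.57 ± 0.16, adjusted p = 4.74e-09), while 3 of 9 tested genes for oleosins, caleosins and other lipid droplet proteins were lower, or 5 without either OK100-oct ABA replicate 2 or wild-type replicate 3 without ABA. Of 14 seed storage and seed regulator genes 13 were too low to test, and PAP85, a vicilin-like protein, was the exception (67.3, 59.5 and 80.5 CPM against 18.6, 20.9 and 15.5 CPM, -1.92).

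Genes of osmotic adjustment and turnover went both ways. P5CS1, of the first step of proline synthesis, had 1226, 931 and 1127 CPM in the wild type and 242, 250 and 255 CPM in OK100-oct (-2.14 ± 0.11, adjusted p = 2.06e-08). P5CR, the next enzyme of that pathway, was higher (0.41), as was the proline transporter gene ProT3 (0.85, a call lost without wild-type replicate 2 or OK100-oct replicate 2 under ABA), and of 9 proline genes 4 were lower and 2 were higher. BAM1, a beta-amylase that degrades starch under stress, had 592, 489 and 611 CPM against 173, 188 and 173 CPM (-1.66), whereas CT-BMY, the beta-amylase of ordinary night-time breakdown, was higher (1.37). Sugar exporters of the SWEET family included SAG29 (SWEET15, 183, 180 and 244 CPM against 19.2, 30.5 and 18.1 CPM, -3.17) and SWEET4 (-2.66). Of 11 SWEET genes tested, 4 were lower, 1 was higher and 6 did not pass. GORK, the outward potassium channel of guard cells, was at -1.75 and the potassium transporter KUP6 at -1.13. The inward potassium channel KT1 (AT2G26650, 0.38) and the guard cell regulator FMA (0.51) were higher. The guard cell list had 6 lower and 2 higher of 15 (median 0.06). ATG8 genes, which tag autophagosomes, were lower in 6 of 9 cases with a median of -0.51, and in 3 of 9 with library totals.

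Chlorophyll breakdown genes were more often lower than higher. Of 11 breakdown genes, 7 were lower and 2 were higher. The higher ones were CLH1, a chlorophyllase gene (2.09), and AT1G44000, annotated as STAY-GREEN-like (0.58). AT4G11910, of the STAY-GREEN family, had 15.2, 16.3 and 23.1 CPM in the wild type and 1.76, 1.55 and 2.12 CPM in OK100-oct (-3.32), and NYE1, the STAY-GREEN gene of leaf yellowing, was at -1.40. Of 10 synthesis genes, 6 were higher and none was lower (median 0.49), with PORB, a protochlorophyllide reductase, at 195, 243 and 177 CPM against 374, 425 and 375 CPM (0.93). Nuclear genes for photosystems, light harvesting and Rubisco were higher in 21 of 47 cases and lower in 1, by small amounts (median 0.20). RBCS1B, a Rubisco small subunit, had the largest increase (37.5, 46.7 and 37.1 CPM against 118, 148 and 138 CPM, 1.74). By the test of the difference the effect of the mutation was higher with ABA in 9 of the 47, where 8.62% of all genes were higher.

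Among the higher genes, a first set was higher in OK100-oct whether or not ABA was given. AT2G01422, an RNA gene of unknown function (chromosome 2, bases 183940 to 184734), had no count in the 3 wild-type ABA libraries and 30.9, 32 and 27.7 CPM in the mutant, at least 214-fold higher against a floor of 3 counts a library. Without ABA its means were 0.0538 CPM in the wild type and 33.1 CPM in OK100-oct. QQS, which affects starch and protein content, had 1.18, 2.01 and 1.13 CPM against 36.8, 30.8 and 30.8 CPM under ABA (4.48 ± 0.22, edgeR adjusted p = 1.08e-08), and means of 0.634 and 26.1 CPM without it. MRD1 had the same pattern (0.182, 0 and 0 CPM against 15.7, 15.6 and 14.3 CPM), but 93.1% of its exon windows occur in other genes, and its counts are uncertain. The difference between treatments in the effect of the mutation did not pass the test for these 3 genes (adjusted p = 0.176, 0.143 and 0.338). With no other mutant line, an effect of the RAF mutations cannot be told apart from another fixed difference of this line.

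A second set was low in the wild type under ABA and higher without it. AT5G64120, a class III peroxidase of the cell wall, had 12.7, 14.8 and 22.6 CPM in the wild type and 174, 179 and 164 CPM in OK100-oct under ABA (3.37 ± 0.23, adjusted p = 1.91e-07), and means of 266 and 348 CPM without it. RHS13, named for its root hair expression, had 0.41, 0.67 and 0.911 CPM against 7.61, 8.13 and 7.16 CPM (3.53). AT1G15125, a methyltransferase-like gene, had 1.82, 1.17 and 0.75 CPM against 20.7, 12.7 and 21.3 CPM (3.84). In each of these the mean of the mutant under ABA lay between the means of the wild type with and without ABA. THAS1 and CYP705A5, both on chromosome 5 in the gene cluster for the root triterpene thalianol, were higher together (3.41 and 3.31). Their mutant means under ABA (10.6 and 17.2 CPM) lay above the wild-type means without ABA (4.58 and 10.2 CPM). Without ABA CYP705A5 was higher in the mutant as well (1.02, edgeR adjusted p = 0.046), and THAS1 did not pass (1.13, adjusted p = 0.0842). XTH31, a xyloglucan-modifying enzyme, had 0.182, 0.503 and 0.482 CPM against 3.33, 5.47 and 6.35 CPM (3.69), and ORA47, an AP2/ERF factor of jasmonate signalling, had 0.775, 0.628 and 0.107 CPM against 7.28, 5.42 and 8.91 CPM (3.77) and was higher without ABA as well (2.20).

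Glucosinolates are sulfur-containing defence compounds of the cabbage family, and their synthesis genes formed the list with the highest median of those described here. Of 21 genes, 19 were higher and none was lower, 10 of them by 3-fold or more, with a median of 1.45 under ABA and 0.64 without it. IPMI1, of the chain-elongation cycle of methionine, had 0.684, 1.42 and 0.536 CPM in the wild type and 8.8, 14 and 13.7 CPM in OK100-oct (3.74 ± 0.48, edgeR adjusted p = 5.52e-05). MYB29, a regulator of the aliphatic pathway, had 0.547, 0.838 and 0.322 CPM against 4.81, 5.66 and 5.54 CPM (3.18). BCAT4, the entry step of elongation, had 2.37, 4.23 and 1.98 CPM against 20.1, 25.9 and 22 CPM (2.96), and CYP79F2, which makes the aldoximes, had 0.82, 1.3 and 0.589 CPM against 5.23, 7.5 and 7.45 CPM (2.86). In none of the 4 did the libraries overlap, which for IPMI1 was a condition of its choice. Summed over the list, the level was 286 to 312 CPM in wild-type and 679 to 765 CPM in mutant libraries with ABA, and 625 to 1127 and 1110 to 1605 CPM without. Without ABA 5 of the 21 were higher, where 2.58% of all genes were. By the test of the difference the effect was higher with ABA for 6, where 8.62% of all genes were higher.

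Lists of other defence genes also held many higher members. Cysteine-rich receptor-like kinases (CRKs), membrane kinases linked to immunity and stress, were higher in 17 of the 27 tested, of 41 listed, and lower in none (median 1.22, against 0.11 without ABA). CRK18 had 14.1, 12.2 and 12.5 CPM in the wild type and 38.2, 54.8 and 33.1 CPM in OK100-oct (1.70), and CRK40 had 0.82, 1.72 and 1.34 CPM against 7.04, 7.6 and 8.34 CPM (2.56). By the test of the difference the effect of the mutation was higher with ABA in 12 of the 27 and lower in none, where 8.62% of all genes were higher. In the salicylic acid list 11 of 17 were higher and 1 was lower (median 0.80, against 0.31 without ABA). ACD6, an ankyrin protein that promotes salicylic acid defence, had 0.273, 0.335 and 0.643 CPM against 4.19, 8.42 and 4.92 CPM (3.83 ± 0.59, adjusted p = 0.000214) and was higher without ABA as well. PAD4, a lipase-like immune regulator, was at 3.78, 3.27 and 4.07 CPM against 9.8, 12.3 and 9.32 CPM, PR5, a pathogenesis-related protein, was at 2.62, and the lower gene was SAG13 (-1.63), which is also a senescence gene.

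**Figure D5:**
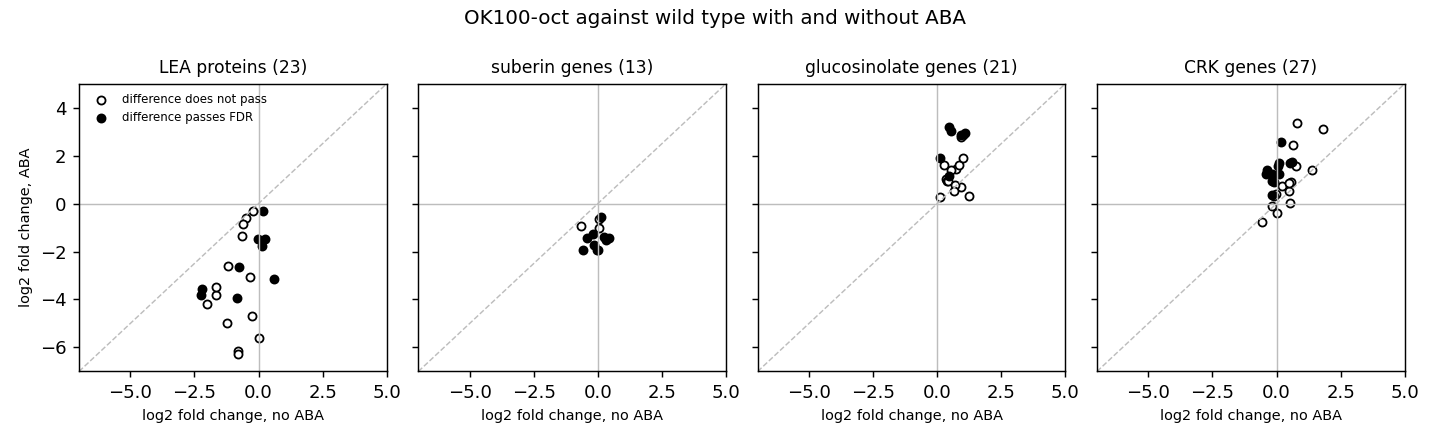
Each point is 1 tested gene of 4 lists, with the log2 fold change of OK100-oct against the wild type without ABA on the horizontal axis and with ABA on the vertical axis. Filled points passed the test of the difference between the 2 effects, and the dashed line marks equal effects. Suberin genes (13) and most CRK genes (27) lie near 0 without ABA and away from it with ABA, and glucosinolate genes (21) are right of 0 on both axes.

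Jasmonate genes were higher in 10 of 18 cases and lower in 3 (median 0.75, against 0.49 without ABA). LOX2, which starts jasmonate synthesis in leaves, had 93.2, 73.4 and 75.8 CPM in the wild type and 338, 467 and 233 CPM in OK100-oct (4.28-fold higher, edgeR adjusted p = 0.000318), and AOS, of the same pathway, was at 1.44. The JAZ repressors did not move together: JAZ5 (2.62) and JAZ10 (1.36) were higher, and JAZ11 (46.4, 46.8 and 50.5 CPM against 26.1, 23.6 and 22.1 CPM) and JAZ1 (-0.57) were lower. RBOHD, the NADPH oxidase of the immune oxidative burst, had 3.37, 3.85 and 4.02 CPM against 10.1, 10.7 and 10.7 CPM (1.49), whereas CAT1, the catalase that ABA induces, was lower (542, 543 and 649 CPM against 276, 254 and 252 CPM, -1.15).

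Core cell cycle genes were higher in 19 of 28 cases and lower in 1 (median 0.80, against 0.35 without ABA). CYCA1;1, an S-phase and mitotic cyclin, had 2.32, 3.56 and 2.14 CPM in the wild type and 8.23, 8.33 and 6.59 CPM in OK100-oct (1.51), and CYCB1;3, a mitotic cyclin, had 1.28, 1.72 and 1.13 CPM against 5.47, 4.07 and 3.87 CPM (1.68). The lower gene was ICK1 (-0.78), an inhibitor of cyclin-dependent kinases that ABA induces. Ribosomal protein genes of the nucleus were higher in 139 of 266 cases and lower in 7, with a median of 0.37. That count was 75 without OK100-oct replicate 2 and 91 without wild-type replicate 1, both of the ABA libraries. GASA1, a gibberellin-regulated peptide, had 230, 271 and 314 CPM against 748, 707 and 730 CPM (1.42), while GASA3 had 23.7, 22 and 19.8 CPM against 1.48, 1.6 and 1.3 CPM (-3.91), so that members of this family went in opposite directions.

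Cell wall loosening genes were likewise mixed, with 17 of 52 expansins and XTH enzymes higher and 13 lower. EXPA16, an expansin, had the largest decrease, at 120, 107 and 137 CPM in the wild type and 6.47, 7.21 and 4.64 CPM in OK100-oct (-4.32 ± 0.18, edgeR adjusted p = 4.26e-09), and about 3.45 CPM in both genotypes without ABA. NRT1.5, a nitrate transporter that loads the xylem, had 5.29, 6.37 and 5.95 CPM against 42.8, 40.2 and 41.2 CPM (2.82), while NRT1.8, which unloads it, was lower (32, 34 and 38.1 CPM against 10.4, 18.2 and 11.7 CPM, -1.37). Ferritin gene FER2 was lower (-2.07), and FRU (FIT), the regulator of iron uptake, was higher (1.24).

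Of 17 flavonoid and anthocyanin genes tested, 5 were higher under ABA, 3 of them by 3-fold or more, and 2 were lower (median 0.34). Without ABA 5 were higher (median 1.13). Among these genes the direction depended on the treatment for some. TT8, a regulator of the late pathway, had 11.9, 9.13 and 12.4 CPM in the wild type and 5.57, 4.79 and 4.68 CPM in OK100-oct under ABA (-1.15), but was higher in the mutant without ABA (1.08, edgeR adjusted p = 0.0276). TT5, chalcone isomerase, had 33.1, 26.8 and 39.2 CPM against 20.7, 22.8 and 21.9 CPM under ABA (-0.60) and was also higher without it (0.96). The difference between treatments passed its test for both. TT7, a flavonoid hydroxylase, was higher under ABA (1.69, 1.21 and 0.857 CPM against 3.71, 5.23 and 5.01 CPM, 1.87).

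In smaller lists single genes stood out. GolS4, a galactinol synthase of the raffinose pathway, was higher in OK100-oct (7.25, 7.12 and 7.77 CPM in the wild type against 18.7, 18.3 and 15.3 CPM, 1.24). Without ABA its log2 fold change was larger, at 2.89 (edgeR adjusted p = 0.000506), on means of 0.173 and 1.3 CPM. The difference between treatments passed its test (-1.65, adjusted p = 0.0111). HSFA6A, a heat shock factor that responds to ABA and salt, had 56.4, 52.1 and 50.3 CPM against 12.9, 16 and 12.6 CPM (-1.94 ± 0.13, edgeR adjusted p = 1.7e-07), while the small heat shock protein gene AT5G51440 was higher (2.48). GA2OX2 and GA2OX6, which inactivate gibberellins, were lower (-0.94 and -0.79). Of 9 gibberellin oxidases tested, 2 were lower and 2 were higher, 1 of the latter by 3-fold or more (median 0.68). The type-A cytokinin response regulator RR3 was higher (0.63). TPPB and TPPJ, both trehalose phosphate phosphatases, went in opposite directions (1.35 and -1.35).

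Other lists held members of both directions. Clock genes were lower in 6 of 17 cases and higher in 1, with CCA1, a morning factor, at -0.93 and ELF4, an evening factor, at -0.84. Of 54 WRKY factors, 12 were lower and 15 were higher, or 9 without wild-type replicate 1 or 2 or OK100-oct replicate 2 or 3 under ABA. For aquaporins, Aux/IAA repressors, nitrate, iron, SAUR and starch genes, leaving out 1 library moved a count by more than 1.5 times, so they are not described as groups. Of 76 plastid-encoded genes tested, 8 were higher and none was lower. Plastid transcripts took 0.0691% of the counts in OK100-oct replicate 2 under ABA, against 0.032% to 0.0409% in the other 5 ABA libraries. Without that library 5 plastid genes were higher, without OK100-oct replicate 3 under ABA 33 were, and without wild-type replicate 3 of the untreated libraries 13 were.

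The comparison without ABA shares no library with the one described. There 73 genes were higher and 29 were lower by the same rule (0.354% and 0.141% of genes tested), and 4.87% of genes passed by adjusted p in either direction. Of the 543 genes higher under ABA, 42 were also among those 73, which is 7.73% of the first list and 57.5% of the second. Of the 388 lower, 15 were among the 29, or 3.87% and 51.7%. Along with the genes above, these included AT5G24915, an uncharacterized gene (16.1, 11.8 and 12.6 CPM in the wild type and 0.523, 0.581 and 0.651 CPM in OK100-oct, with means of 0.769 and 0.143 CPM without ABA). The test of the difference between the 2 effects of the mutation passed for 298 of the higher genes (54.9%) and 224 of the lower (57.7%), beside the 18.2% of all genes. It did not pass for 11 of the 12 leading lower genes, which had so few counts without ABA that their fold change there was poorly estimated.

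A few genes passed the test in opposite directions with and without ABA. NRT1.5 was 2.82 with ABA and -0.58 without it (adjusted p = 0.00515 by edgeR), at means of 156 and 104 CPM without ABA in wild type and mutant. AT1G22690, a gibberellin-regulated peptide gene, was 2.98 with and -0.43 without ABA. PS2, an inorganic pyrophosphatase gene, was -2.21 with and 1.01 without, and ERD10 was -1.76 and 0.47. NCED3, the ABA synthesis gene, was -1.20 with ABA and 1.22 without it (adjusted p = 0.0326), the latter at means of 0.521 and 1.2 CPM. Of genes past 3-fold in both treatments, 4 went in opposite directions, and none of them reached 5 CPM.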

How the data were processed

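RNA from whole seedlings was sequenced and the authors deposited counts per gene for 12 libraries (4 groups of 3). The submitters' processing notes name Trimmomatic 0.36, HISAT2 2.1.0, HTSeq 0.9.1 and TAIR10. The labels and the study's methods name different RNA and library kits. Genes (33602 in the table) were filtered with edgeR's filterByExpr, leaving 20617. All 12 libraries were fitted together in R 4.3.3 with edgeR 4.0.16 (TMM factors, quasi-likelihood test, no block), which gave a biological coefficient of variation of 11.9%, and the effect of the mutation was tested with ABA, without ABA and as the difference between them, with Benjamini-Hochberg adjustment over all tested genes. Genes with an adjusted p < 0.05 and at least 3-fold change were called. The fitting code was tested on simulated data. Replicates of a group differed by more than counting noise, so none were merged. Annotation and windows came from RefSeq TAIR10.1, which matched 32835 loci.

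Named genes were the 12 with the largest change each way (at least 5 CPM in the higher group, no overlap), 4 marker genes the study names, up to 4 passing members of each list with at least 1 CPM plus up to 2 of the rarer direction, any member of the core ABA lists, and genes called in both treatments. The members and the 53 lists were chosen with earlier results of these data known. Alternatives were DESeq2 1.42.0, its size factors, library totals, other count filters and fold limits, a replicate block, the 6 ABA libraries alone, nuclear genes alone, and leaving out each library.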

Additional observations from a re-analysis of the deposited data

Results flagged for a closer look

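The effect of the mutation differed between seedlings with and without ABA for 3747 genes (18.2%) by the test of the difference itself (edgeR, adjusted p < 0.05). Among the 28 leading genes and markers, 11 did so. Relative to the effect without ABA, the log2 fold change with ABA was higher by 3.51 for AT1G15125, 3.00 for RHS13, 2.99 for AT5G64120, 2.97 for IPMI1, 2.56 for XTH31, 2.30 for CYP705A5 and 2.28 for THAS1. It was lower for 3 of the 4 markers, at -1.91 for COR15A, -2.14 for KIN1 and -2.17 for LTI65 (RD29B), and the difference did not pass for RAB18 (-0.79, adjusted p = 0.0688). The difference of -7.67 for AT3G58450 (adjusted p = 0.0186) rests on levels without ABA of 0 CPM in the wild type and 0.0408 CPM in OK100-oct.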

How the results depend on the processing

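The counts of 543 higher and 388 lower 3-fold genes became 190 and 161 when each library had to hold at least 10 counts, 999 and 984 with a test against 1.5-fold, and 1352 and 929 with a 2-fold minimum. With the 10-count filter 15 genes were called the same way in both treatments, against 57. Library totals gave 6336 higher and 2799 lower genes by adjusted p alone, against 4399 and 4276. With 1 library left out the ranges were 496 to 630 higher and 387 to 458 lower 3-fold genes, 3194 to 4958 and 3455 to 4848 by adjusted p alone, 2635 to 5432 for the difference between treatments, and 48 to 63 called the same way in both. Of 260 named genes, 14 lost and 4 gained their call under at least 1 of 8 alternatives that keep all libraries, 25 and 3 with 1 library left out, and none changed direction. The difference between treatments could not be given by the 6 ABA libraries alone. Deviations of same-numbered replicates from their group means had correlations of 0.10, -0.04 and -0.04 under ABA. With 3 libraries a group this cannot tell whether same-numbered samples were handled together, and the labels do not say. With a replicate block the counts were 533 higher and 389 lower, 4145 and 4087 by adjusted p alone, 3180 for the difference and 53 called the same way in both.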

Other observations

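Further families were grouped by words in the annotated product name, a choice made after their values were seen. Of 145 tested TIR domain or NBS-LRR proteins, a class of intracellular immune receptors, 69 were higher and 6 were lower in OK100-oct under ABA, with a median log2 fold change of 0.41 under ABA and 0.02 without it. Defensin-like genes, which encode small antimicrobial peptides, were higher in 7 of 12 cases. Of 237 genes whose product name holds the letters ectin, 79 were higher and 32 were lower, and 20 and 3 of these were 3-fold genes. That search takes in pectin methylesterases, their inhibitors and pectin lyases, but also lectin proteins, so it mixes families. Class III peroxidases were higher in 18 of 52 cases and lower in 14. ABC transporters were lower in 26 of 65 cases and higher in 16. Over all tested genes 21.3% were higher and 20.7% were lower.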
